A study of Mus musculus with 6 samples.

Results

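Collagen chain genes encode the polypeptides that wind into collagen triple helices, the main structural proteins of the extracellular matrix. They were read here in whole mouse ovaries as the rows whose symbol has the form Col, a number, the letter a and a number, with at least 1 TPM, a length-corrected share of transcripts, in at least 3 of the 6 libraries. Of 44 such symbols among the 33036 features of the deposited table, 33 passed that filter. By the textbook grouping of collagens, 8 of them are fibrillar, 6 belong to the type IV collagens of basement membranes, 6 are FACITs (fibril-associated collagens with interrupted triple helices) and 13 are of other kinds. The study addressed how low-pressure hypoxia affects the ovary. Each group of 15 female C57BL/6J mice (C57BL/6 in the series text, which gives an age of 8 weeks) received oral levonorgestrel and ethinylestradiol to synchronise cycles. Doses, 0.1 mg/kg and 0.02 mg/kg, are labelled for the hypoxia samples alone. One group was kept at the local pressure of Lanzhou, which is 83.56 kPa at 1588 m in the series text and 1500 m with 17.8 kPa oxygen in the labels. The other group was kept in a chamber at 43.12 kPa, simulating 6500 m with 8.1 kPa oxygen, although the sample descriptions say 5000 m. Exposure lasted 15 days in the series text, but in both groups replicate 1 is described with 15 days, replicate 2 with 16 and replicate 3 with 17. There were 3 libraries per group, all labelled batch 1. The labels do not say whether a library came from 1 mouse or a pool, so the p-values measure only the variation among libraries, part of which may be technical.

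As background, a collagen chain repeats glycine followed by a pair of other residues, and 3 chains wind into each molecule. Fibrillar collagens pack side by side into the fibrils that give stroma its tensile strength. Type IV collagens form a sheet-like network under epithelia, around vessels and, in the ovary, around each follicle. FACITs sit on the surface of fibrils, and type VI collagen forms beaded microfilaments near cells. The ovary remodels these matrices as follicles grow, rupture and turn into corpora lutea. In ovary, as in any whole tissue, fewer cells of a type and less RNA per cell cannot be told apart in these values.

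TPM corrects for transcript length and gives every library the same total, so levels can be compared between genes but read depth is unknown. Normal-pressure replicate 2 stood apart: protein-coding genes other than the very abundant feature Zfp949 held 37.6% of its TPM, against 42.6% to 46.1% in the other 5 libraries. It was the lowest of the 3 normal-pressure libraries for 29 of the 33 collagen genes. Hypoxia replicate 2 was the lowest of its group for 19 of the 33. The median coefficient of variation of the collagen genes was 12.8% across normal-pressure libraries and 7.28% across hypoxia libraries.

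The genomic sequence is shown here before the 3 called genes, changed by at least 0.5 in log2, whose upstream stretch met the criteria given in the methods. These stretches differ in base composition and in the motifs they hold. The genes are Col11a1, Col5a3 and Col3a1. Each line gives the 150 bases 5′ to 3′ before the outermost start in RefSeq on build GRCm38.p6, with motif matches in capitals. The stretch for Col11a1 lies at chr3:114030329-114030478 on the plus strand. That for Col5a3 lies at chr9:20815118-20815267 on the minus strand, and that for Col3a1 at chr1:45311388-45311537 on the plus strand.
Col11a1: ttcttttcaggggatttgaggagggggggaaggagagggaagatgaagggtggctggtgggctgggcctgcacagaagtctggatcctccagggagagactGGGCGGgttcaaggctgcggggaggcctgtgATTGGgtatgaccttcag
Col5a3: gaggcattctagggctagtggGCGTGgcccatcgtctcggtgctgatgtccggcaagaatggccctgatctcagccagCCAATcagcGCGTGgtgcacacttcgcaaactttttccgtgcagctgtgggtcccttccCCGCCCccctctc
Col3a1: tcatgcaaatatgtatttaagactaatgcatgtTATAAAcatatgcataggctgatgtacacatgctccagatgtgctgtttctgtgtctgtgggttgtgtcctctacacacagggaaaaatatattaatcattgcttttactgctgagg

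The stretch before Col3a1 was AT-rich, with 37.3% G and C, and held the TATA-type word TATAAA 117 bases before the start. Those before Col11a1 and Col5a3 were GC-rich, at 60.0% and 62.0%. The Col11a1 stretch held a GC box (GGGCGG) 49 bases before the start and a reversed CCAAT box (ATTGG) 18 bases before it. The Col5a3 stretch held a CCAAT box at 72 bases, a GC box in reverse (CCGCCC) at 13 bases, and the short word GCGTG at 129 and 63 bases. A promoter entry existed for 26 of the 33 genes, with 28 windows, and both strands of the 250 bases before each entry's start were searched, as were 32851 windows of all genes. The GC box GGGCGG occurred in 20 of the 28 collagen windows (71.4%), against 32.7% of all windows. The CCAAT box was found in 35.7% and 33.8%. The hypoxia-response core, written ACGTG or else GCGTG, was found in 32.1% of the collagen windows and 38.6% of all windows. The word TATAAA was present in 1 collagen window, that of Col3a1, and in 12.4% of all windows. The SOX-type word AACAAT was likewise present in the window of Col3a1 alone, and in 9.42% of all windows. Collagen windows were richer in G and C, with a median of 64.0% over the 150 bases nearest the start, against 54.0%, and the shares above are not matched for this. Matches of this kind are descriptions of letters and not binding sites. Col1a1, Col5a2, Col4a3, Col12a1, Col14a1, Col22a1 and Col26a1 have no entry and are only named.

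The genes of the classes also differ in their coding exons, as annotated in GENCODE M21. In the fibrillar genes 41.2% to 54.1% of coding exons were exactly 54 bases long, the length that encodes 6 glycine triplets of 9 bases. Among basement membrane genes that share was 2.13% to 5.66%. The FACIT genes spread widely, with a median of 14.3%, and Col9a2 (43.8%) and Col22a1 (44.4%) lay in the fibrillar range. Genes of the other kinds held 0% to 14.3%. The basement membrane genes lie in 3 head-to-head pairs: Col4a1 and Col4a2 on chromosome 8 with starts 21 bases apart, Col4a3 and Col4a4 on chromosome 1 with starts 72 bases apart, and Col4a5 and Col4a6 on chromosome X with starts 1309 bases apart. Col6a4, Col6a5 and Col6a6 lie in a row on the minus strand of chromosome 9. Exons of 8 of the 33 genes overlap an exon of another gene on the opposite strand. They are Col4a1, Col4a2, Col4a3, Col5a1 and, among the genes called below, Col6a4, Col6a6, Col15a1 and Col22a1. Exons of Col3a1, also called below, and of Col20a1 overlap an exon of another gene on their own strand. Whether the reads were counted by strand is not given in the sources used here, so the values of these genes may hold reads of their neighbours.

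Under hypobaric hypoxia transcripts of the fibril-forming chains Col1a1, Col3a1 and Col5a3 and of 4 type VI chains were lower, and those of Col11a1, Col9a2, Col22a1 and Col6a4 were higher. Of the 33 genes, 14 were called by limma at an adjusted p of 0.05 over all 17120 features tested, 10 lower and 4 higher in hypoxia. Among all features tested 7.20% were called lower and 11.1% higher, against 30.3% and 12.1% of the collagen genes. The share called higher was thus near the background. The groups of 3 libraries did not overlap, with hypoxia lower, for 12 collagen genes, a state found in 11.6% of all features. With hypoxia higher they did not overlap for 10 collagen genes, against 27.6% of all features. The median log2 fold change was -0.10 over the collagen genes and 0.08 over all features, and 17 collagen genes were below 0 and 16 above. Col22a1 and Col25a1 passed the TPM filter through 1 group only, and without them 9 of 31 genes were called lower and 3 higher. The counts move with scaling and with single libraries, and so do the shares of all features called. After median-ratio scaling, quantile normalization and scaling to the protein-coding total, 16 were called lower each time, with 7, 9 and 9 higher. Of all features, 18.3%, 16% and 14.9% were then called lower and 16.1%, 20.3% and 21.6% higher. Leaving out normal-pressure replicate 2 gave 13 lower, with 12.6% of all features lower. Leaving out normal-pressure replicate 1, normal-pressure replicate 3, hypoxia replicate 2 or hypoxia replicate 3 gave 5, 5, 4 and 6. The shares of all features called lower were then 5.57%, 4.72%, 5.29% and 7.52%.

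**Figure D1:**
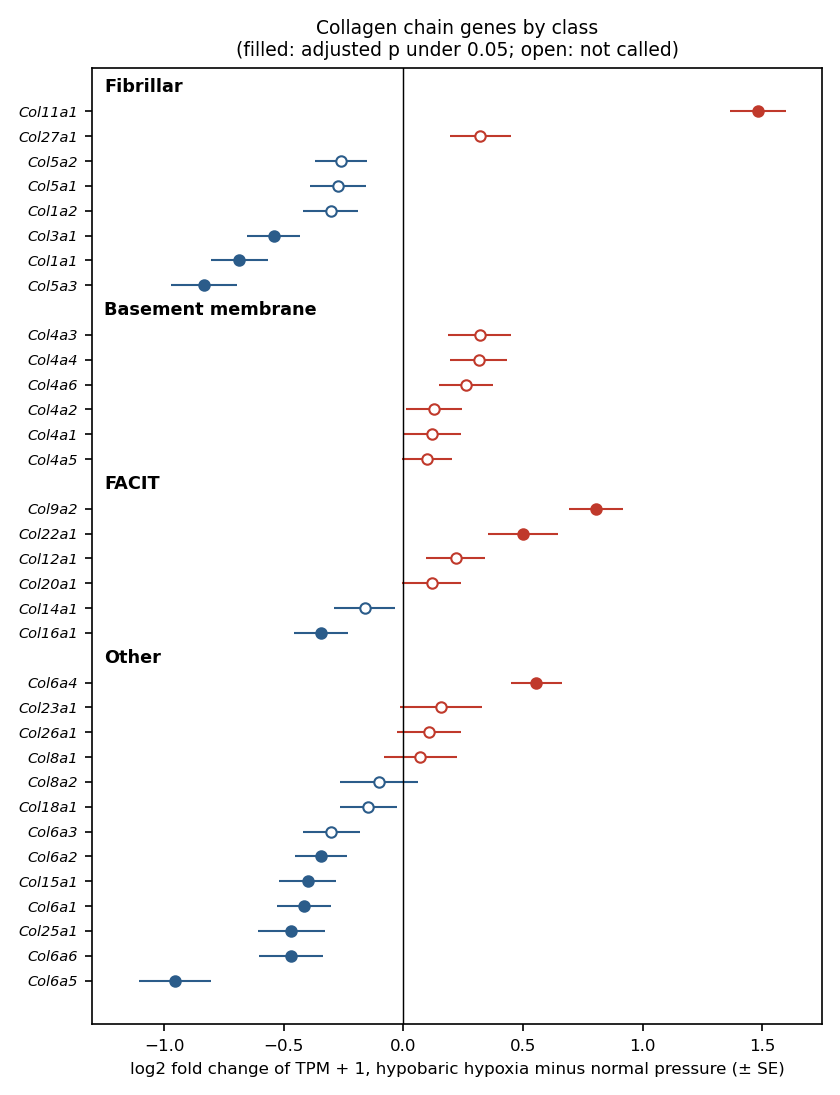
Log2 fold change of TPM + 1 (hypoxia minus normal pressure, with its SE, x axis) of each of the 33 collagen chain genes, ordered within 4 classes, with filled points for genes called at an adjusted p under 0.05. Fibrillar points lie mostly left of 0 with Col11a1 far to the right at 1.48, and all 6 basement membrane points lie right of 0 and are open.

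Of the 8 fibrillar genes, which held the most transcripts of any class in each library, 3 fell and 1 rose, with a median log2 fold change of -0.29. Over all features tested 7.20% were called lower and 11.1% higher, and the median was 0.08. Col1a1, at chr11:94936224-94953042 on GRCm38.p6, encodes the chain present in 2 copies in type I collagen, the chief fibril collagen of stroma. It was at 210.3, 187 and 210.4 TPM at normal pressure and at 137, 109 and 131 under hypoxia. All hypoxia libraries lay below all normal-pressure libraries, 203 ± 13.5 against 126 ± 15.0 TPM (SD, n = 3), or 1.61-fold lower (log2 fold change -0.69, SE 0.12, adjusted p = 0.000959, limma). Col1a2, its partner chain at chr6:4505618-4541543, was at 236, 212 and 248 TPM and then at 202, 174 and 187. These groups did not overlap either, but the difference was smaller and was not called (log2 fold change -0.30, adjusted p = 0.0786), and it was called after each of the 3 rescalings and without normal-pressure replicate 2.

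Col3a1 encodes type III collagen, a homotrimer that co-assembles with type I collagen in extensible tissue, and lies at chr1:45311538-45349706. Its levels were 223, 217 and 239.6 TPM against 168, 143 and 155. It fell from 226 ± 11.9 to 155 ± 12.6 TPM with no overlap (log2 fold change -0.54, SE 0.11, adjusted p = 0.00345, limma). Type V collagen is a minor component that sits inside type I fibrils and limits their diameter. Its rarest chain gene, Col5a3, was at 3.30, 2.66 and 3.17 TPM against 1.46, 1.03 and 1.32. That is 2.40-fold lower, again with no overlap (log2 fold change -0.83, SE 0.14, adjusted p = 0.00071, limma). The more abundant type V chains were not called. Col5a1 was at 34.2, 29.3 and 37.9 TPM against 29.98, 26.2 and 26.9, with overlapping groups (log2 fold change -0.27, adjusted p = 0.118). Col5a2 was at 17.1, 15.7 and 17.3 TPM against 14.7, 12.8 and 13.9, with groups that did not overlap (log2 fold change -0.26, adjusted p = 0.112). Both were called lower after the 3 rescalings and without normal-pressure replicate 2.

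Col11a1, at chr3:114030479-114220756, encodes a chain of type XI collagen, which in cartilage nucleates thin fibrils and elsewhere mixes with type V chains. It was at 10.3, 9.87 and 9.78 TPM at normal pressure and at 28.4, 34.5 and 26.8 TPM under hypoxia. The groups were far apart, with a 2.99-fold higher mean of 29.9 ± 4.09 against 9.997 ± 0.301 TPM. This was the largest absolute log2 fold change of the 33 genes in the fit as reported (1.48, SE 0.12, adjusted p = 1.47e-06, limma). Other genes of cartilage fibrils were low: Col2a1, the main cartilage collagen, ranged from 0.03 to 0.07 TPM over the 6 libraries, and Col11a2 from 0.47 to 0.84. Col27a1, a fibrillar gene of developing cartilage and other tissues, was at 14.2, 11.4 and 15.8 TPM and then at 16.7, 19.0 and 16.4. Its groups did not overlap and it was not called (log2 fold change 0.32, adjusted p = 0.0903).

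**Figure D2:**
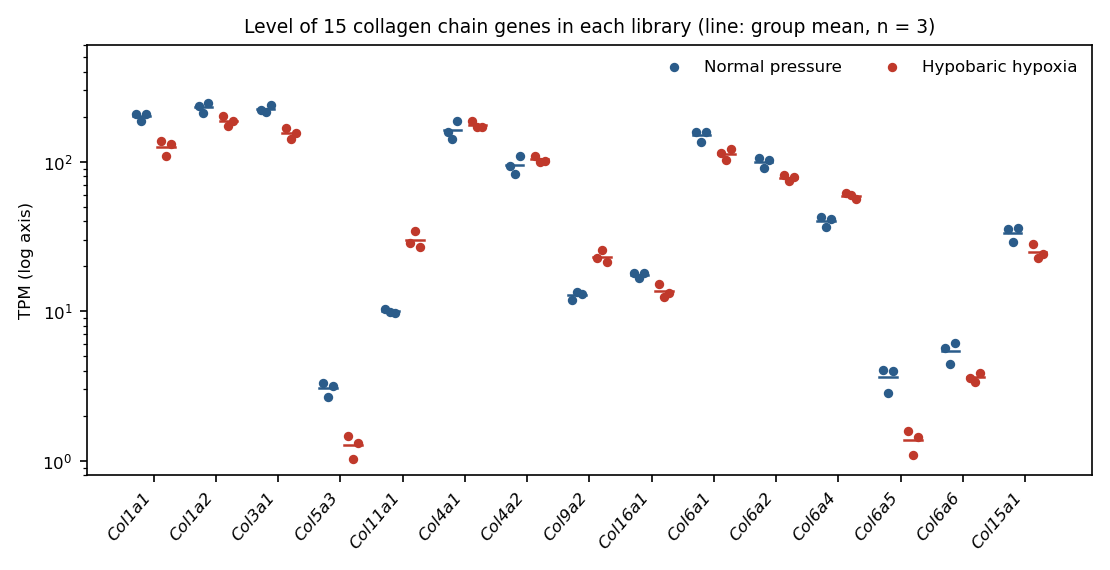
TPM on a log axis of 15 collagen chain genes in each of the 6 libraries, with a line at the mean of each group (n = 3). The hypoxia points of Col11a1, Col9a2 and Col6a4 lie above the normal-pressure points, those of Col1a1, Col3a1, Col5a3 and Col6a5 lie below, and those of Col4a1 and Col4a2 overlap.

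None of the 6 basement membrane genes was called in either direction by limma, although 3 had an unadjusted p under 0.05, all higher in hypoxia, a state found in 20.6% of all features. All 6 log2 fold changes were above 0, from 0.10 to 0.32 with a median of 0.19, and this sign held for each type IV gene tested in each of the 15 alternative settings. A positive sign was also the more common one in the whole table, at 63.2% of all features tested. Col4a1 encodes the most widespread type IV chain and was the most abundant gene of the class. It was at 159, 143 and 188 TPM against 186, 171 and 172, or 163 ± 22.8 and 176 ± 8.68 TPM. The hypoxia values lay inside the range of the normal-pressure values (log2 fold change 0.12, SE 0.12, adjusted p = 0.523). Col4a2, which pairs with it in the same trimer, was at 93.7, 83.1 and 109.6 TPM against 109.1, 100.1 and 102, with overlapping groups (log2 fold change 0.13, adjusted p = 0.487).

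The other type IV chains are found in more specialised basement membranes. Col4a3 (2.39, 1.92 and 2.58 against 3.04, 3.23 and 3.03 TPM) and Col4a4 (10.8, 8.55 and 11.1 against 12.9, 13.3 and 12.1 TPM) had log2 fold changes of 0.32 and 0.31, with adjusted p of 0.105 and 0.082. Col4a5 was at 17.9, 16.0 and 17.1 against 18.2, 18.7 and 17.9 TPM (log2 fold change 0.10, adjusted p = 0.55). Col4a6 was at 22.0, 17.6 and 21.1 against 23.4, 24.7 and 24.9 TPM (log2 fold change 0.26, adjusted p = 0.122). In these 4 genes every hypoxia library was above every normal-pressure library, by small margins. Such separation, with hypoxia higher, was found in 27.6% of all features tested. Rescaling brought some of the 6 past the threshold: 3 after median-ratio and protein-coding scaling and 4 after quantile normalization. Under these settings the share of all features called higher rose too, from 11.1% to 16.1%, 21.6% and 20.3%.

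Among FACIT genes, which carry binding sites on fibril surfaces, 2 rose and 1 fell, with a class median of 0.17. Over all features tested the median was 0.08, with 11.1% called higher and 7.20% lower. Col9a2, at chr4:121039566-121055325, encodes a chain of type IX collagen, which decorates the type II fibrils of cartilage. It was at 11.9, 13.5 and 13.1 TPM against 22.6, 25.7 and 21.3, a 1.81-fold higher mean with no overlap (log2 fold change 0.81, SE 0.11, adjusted p = 0.000172, limma). Its partner chains stayed low: Col9a1 ranged from 0 to 0.06 TPM and Col9a3 from 0.31 to 0.40. Col22a1, a collagen of tissue junctions, was at 0.43, 0.43 and 0.62 TPM against 1.00, 1.28 and 1.06 (log2 fold change 0.50, SE 0.15, adjusted p = 0.0258). It rose from below the TPM filter, and the call was lost without normal-pressure replicate 1 (adjusted p = 0.0556). When any 1 hypoxia library was left out, Col22a1 no longer met the filter and was not tested. Col16a1, a FACIT of smooth muscle and skin, fell from 18.1, 16.7 and 18.0 TPM to 15.2, 12.4 and 13.3 with no overlap (log2 fold change -0.35, SE 0.11, adjusted p = 0.0435). That call was lost with no filter, without a variance trend and when any 1 library other than normal-pressure replicate 2 was left out, and its adjusted p ranged from 0.00616 to 0.244 over the alternatives. Col12a1 (log2 fold change 0.22), Col14a1 (-0.16) and Col20a1 (0.12) were not called.

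The 13 other genes held 6 that fell and 1 that rose, and 4 of the 6 that fell, with the 1 that rose, were type VI chains. Over all features tested 7.20% were called lower and 11.1% higher. In the classic type VI trimer, which is made of the chains of Col6a1, Col6a2 and Col6a3, Col6a1 fell from 158, 136 and 157 TPM to 114, 103 and 121. The groups did not overlap (log2 fold change -0.42, SE 0.11, adjusted p = 0.019). Col6a2 was at 107, 90.6 and 103 TPM against 81.6, 74.3 and 79.5, lower with no overlap (log2 fold change -0.34, SE 0.11, adjusted p = 0.0385). Col6a3 was at 59.6, 47.2 and 54.4 against 49.0, 41.3 and 40.0 TPM, with overlapping groups, and was not called (log2 fold change -0.30, adjusted p = 0.0932). The Col6a2 call was lost when any 1 library other than normal-pressure replicate 2 was left out, and the Col6a1 call without normal-pressure replicate 1 or hypoxia replicate 2. With no filter on low values both were lost (adjusted p = 0.0686 for Col6a1 and 0.0793 for Col6a2), and Col6a2 also without a variance trend (0.0565).

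The 3 alternative chains, whose genes neighbour each other on chromosome 9, can stand in for the third chain of the trimer. They moved apart. Col6a4 rose from 42.5, 36.4 and 41.4 TPM to 61.5, 60.1 and 56.3 with no overlap (log2 fold change 0.56, SE 0.11, adjusted p = 0.00211). Col6a5 fell from 4.06, 2.82 and 3.97 TPM to 1.58, 1.09 and 1.45, or 2.63-fold (log2 fold change -0.95, SE 0.15, adjusted p = 0.000426). Col6a6 fell from 5.68, 4.44 and 6.17 TPM to 3.60, 3.38 and 3.86 (log2 fold change -0.47, SE 0.13, adjusted p = 0.0222), and its groups did not overlap. The Col6a6 call was lost when normal-pressure replicate 3 or else hypoxia replicate 2 was left out and with no filter on low values (adjusted p = 0.11).

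Col15a1, a multiplexin that sits beside basement membranes, fell from 35.3, 29.0 and 35.9 TPM to 28.2, 22.8 and 24.1 (log2 fold change -0.40, SE 0.12, adjusted p = 0.0299). No hypoxia library reached the lowest normal-pressure library. The call was lost with no filter on low values and without normal-pressure replicates 1 or 3 or hypoxia replicates 2 or 3, with an adjusted p of up to 0.141. Col25a1, a transmembrane collagen known from neurons, was at 1.00, 1.11 and 1.05 TPM against 0.48, 0.49 and 0.48 (log2 fold change -0.47, SE 0.14, adjusted p = 0.03). It met the TPM filter through the normal-pressure group alone, and its call was lost when any 1 hypoxia library was left out. When any 1 normal-pressure library was left out, Col25a1 was not tested. The other multiplexin gene, Col18a1, which encodes the precursor of endostatin, was not called (log2 fold change -0.15), nor were Col8a1, Col8a2, Col23a1 and Col26a1, with log2 fold changes from -0.10 to 0.16.

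Summed over the 33 genes, collagen transcripts held 1576, 1395 and 1650 TPM at normal pressure and 1409, 1265 and 1329 under hypoxia, and the groups overlapped. The shares of some classes in that total, unlike its size, separated the groups. Such shares are not independent, since a smaller fibrillar sum raises the shares of the other classes. Fibrillar genes held 47.5%, 49.1% and 47.4% of it at normal pressure and 42.5%, 41.1% and 42.0% under hypoxia. Within them Col1a1, Col1a2 and Col3a1 together held 43.0 ± 1.03% against 35.1 ± 1.23%, a larger fall than that of the whole class. Basement membrane genes held 19.4%, 19.3% and 21.2% against 25.0%, 26.2% and 24.9%. In both classes the groups were apart by several SD, at 48.0 ± 0.958% against 41.9 ± 0.699% for fibrillar genes and 20.0 ± 1.04% against 25.4 ± 0.677% for basement membrane genes (SD, n = 3). FACIT genes were a small fraction in both, 3.65% to 3.78% against 4.81% to 5.30%. The other genes overlapped between groups, at 27.8% to 29.5% and 27.4% to 28.2%. Summed fibrillar TPM was 738 ± 49.3 against 559 ± 39.3 and summed basement membrane TPM 308 ± 39.8 against 338 ± 12.5, the first pair apart and the second pair overlapping.

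**Figure D3:**
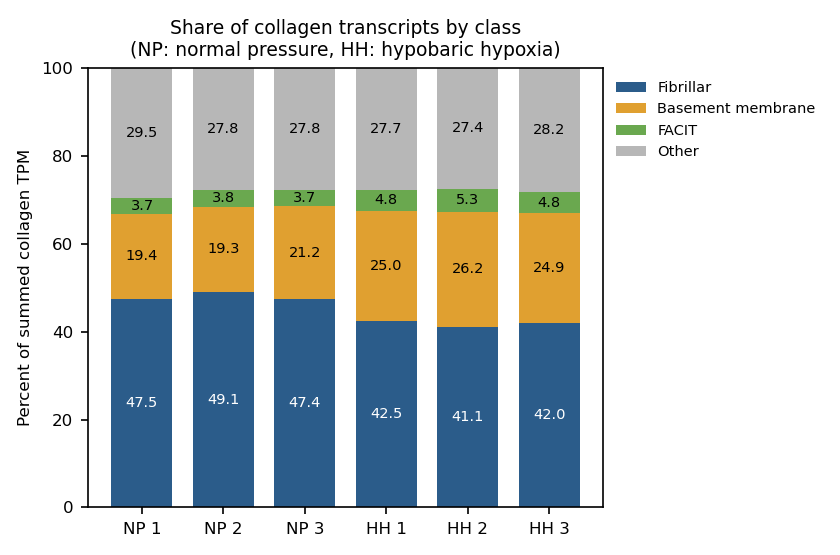
Percent of summed collagen TPM held by fibrillar, basement membrane, FACIT and other collagen genes in each library (NP, normal pressure; HH, hypobaric hypoxia), as stacked bars that each reach 100 percent. The fibrillar share is 47.4% to 49.1% in the normal-pressure bars and 41.1% to 42.5% in the hypoxia bars.

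Ratios of TPM between chains within a library do not change when a library is scaled by 1 factor, as they can under quantile normalization, and 16 were computed from the deposited values. An exact permutation test of 3 against 3 libraries cannot go below p = 0.10, so they are given with their spread and without a test. The ratio of Col1a1 to Col1a2, which in the protein of type I collagen is 2 to 1, was 0.893, 0.882 and 0.850 at normal pressure and 0.682, 0.625 and 0.703 under hypoxia. Every hypoxia value was below every normal-pressure value. The ratio of Col4a1 to Col4a2 did not separate the groups, at 1.69, 1.72 and 1.71 against 1.71, 1.71 and 1.68. The ratios of the other type IV pairs were higher under hypoxia with no overlap, Col4a3 over Col4a4 at 0.227 ± 0.006 against 0.243 ± 0.007 and Col4a6 over Col4a5 at 1.19 ± 0.076 against 1.33 ± 0.051. For Col5a1 over Col5a2 the groups overlapped, at 2.02 ± 0.167 against 2.01 ± 0.062, as they did for Col6a1 over Col6a2, at 1.51 ± 0.023 against 1.44 ± 0.075. Col4a1 over Col1a1 went from 0.803 ± 0.077 to 1.41 ± 0.138, and Col11a1 over Col5a1 from 0.299 ± 0.040 to 1.09 ± 0.201, both without overlap. Among the type VI genes Col6a4 over Col6a3 was 0.748 ± 0.031 and 1.37 ± 0.106, and Col6a5 over Col6a6 was 0.665 ± 0.044 and 0.379 ± 0.058, again with separate groups.

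**Figure D4:**
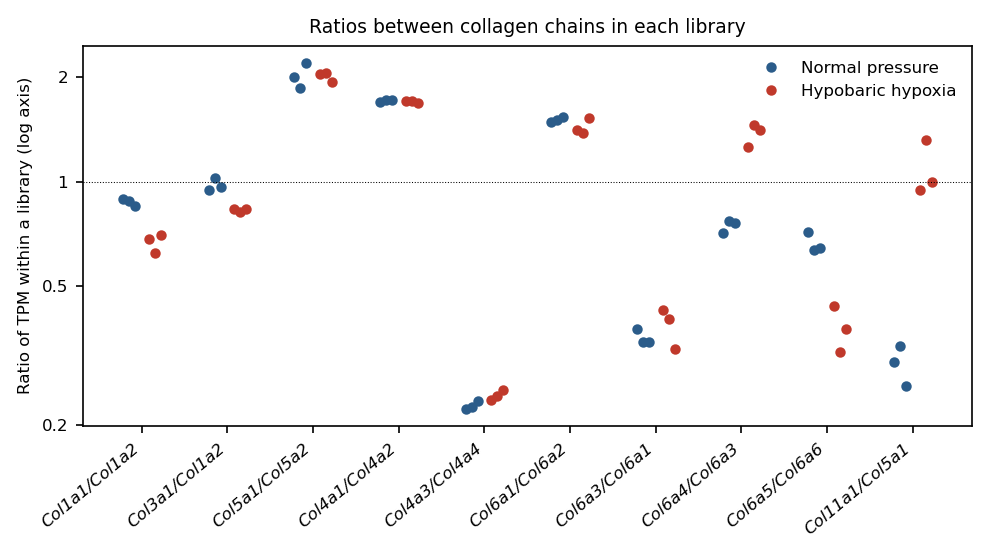
Ratio of TPM of one chain to another within each library (log axis) for 10 chain pairs, with 3 points per group. The groups overlap for Col4a1/Col4a2, Col5a1/Col5a2, Col6a1/Col6a2 and Col6a3/Col6a1, and lie apart for Col1a1/Col1a2, Col6a4/Col6a3 and Col11a1/Col5a1.

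Genes that make, process or bind collagen were read beside the chains. Of 100 genes in 8 lists, 98 were in the table and 88 were tested, of which 14 (15.9%) were called lower and 11 (12.5%) higher, against 7.20% and 11.1% of all features, so the share called higher was near the background. Their median log2 fold change was 0.05. Inside the cell, chains are hydroxylated, glycosylated and folded. Of 13 hydroxylase genes 1 rose, P4ha1, which encodes a catalytic subunit of prolyl 4-hydroxylase (19.7 ± 1.21 against 29.4 ± 3.51 TPM, log2 fold change 0.55, adjusted p = 0.00371). Among the 13 genes of glycosyltransferases, the chaperone and export, limma called 0, with 1 higher at an unadjusted p under 0.05. Outside the cell, Pcolce, an enhancer of procollagen C-proteinase, fell from 190.1 ± 19.5 to 107 ± 10.3 TPM (log2 fold change -0.83, adjusted p = 0.000202). Tll2, a proteinase of the same family, fell as well (log2 fold change -0.56). Adamts2, which removes the amino-terminal propeptide, rose from 35.8 ± 0.959 to 57.2 ± 4.01 TPM (log2 fold change 0.66, adjusted p = 0.000477). Of 4 lysyl oxidase genes, whose enzymes crosslink fibrils, Loxl2 (log2 fold change -0.48, adjusted p = 0.012) and Loxl3 (-0.40, adjusted p = 0.0396) fell. With no filter on low values limma called 0 of the lysyl oxidase genes lower, with 4 at an unadjusted p under 0.05, and without hypoxia replicate 2 it called 0, with 2 at an unadjusted p under 0.05. The Loxl3 call was also lost without any 1 of the other libraries except normal-pressure replicate 2, and the Tll2 call with no filter or without hypoxia replicate 2.

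Partners of fibrils and of basement membranes were counted apart. Beside the counts that follow, 7.20% of all features tested were called lower and 11.1% higher. Of 14 genes for fibril partners 6 fell and 1 rose. Those that fell most were Postn (log2 fold change -1.43), Comp (-1.21) and Dpt (-1.16), genes of secreted matrix proteins, and Prelp, a small leucine-rich proteoglycan gene, rose (0.44). Of 19 basement membrane partner genes 4 rose and 1 fell. Lama2, a laminin chain gene, and Fras1 each had a log2 fold change of 0.60, Pxdn, whose peroxidase crosslinks type IV collagen, 0.39, and Frem1 0.38. Sparc, a collagen-binding matricellular protein gene, fell from 522 ± 54.1 to 338 ± 26.2 TPM (log2 fold change -0.62). Of 10 receptor genes 3 rose, led by Itga2, the collagen-binding integrin alpha-2 gene (6.12 ± 0.442 against 13.5 ± 1.23 TPM, log2 fold change 1.03, adjusted p = 2.96e-05), with Itga10 (0.49) and Itga1 (0.40). Among 10 genes of collagenases and related proteins 3 fell, Timp1 (log2 fold change -2.20), Ctsk (-0.51) and Mmp14 (-0.37), and Mmp16 rose (0.41). Timp1 is an inhibitor of matrix metalloproteinases and was at 75.2, 64.2 and 127 against 29.6, 11.9 and 15.5 TPM, with no overlap. Of all 25 partner genes called, 12 kept their call in each alternative where they were tested, among them P4ha1, Adamts2, Pcolce, Itga2, Lama2, Fras1, Sparc, Postn, Comp, Dpt and Timp1. Leaving out single libraries ended the calls of Pxdn and Itga1 (hypoxia replicates 1 or 2), Dcn (hypoxia replicate 2), Itga10 (normal-pressure replicate 1 or hypoxia replicate 1), Prelp and Ctsk (hypoxia replicate 3). The calls of Frem1, Mmp14 and Mmp16 were each lost when any 1 of 4 libraries was left out.

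**Figure D5:**
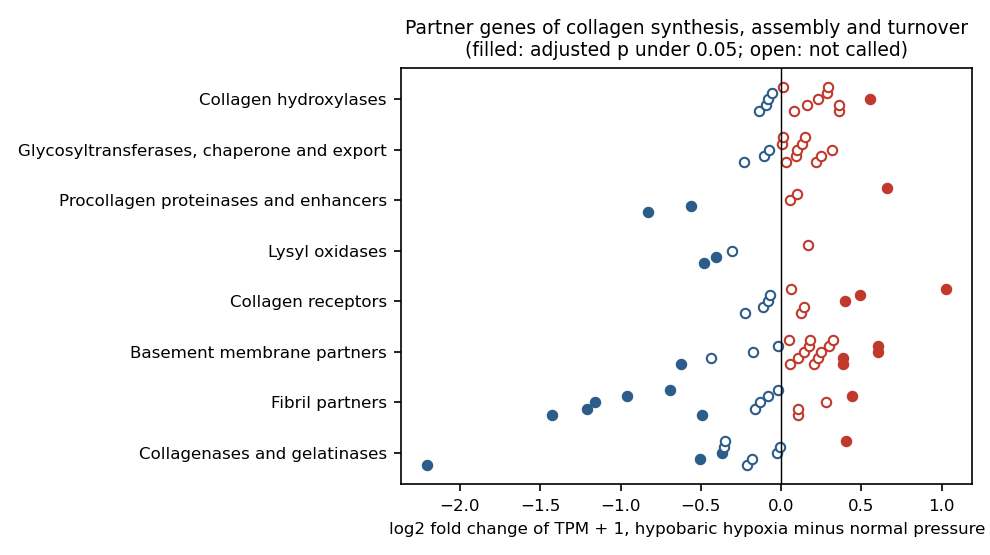
Log2 fold change of TPM + 1 (hypoxia minus normal pressure, x axis) of the 88 tested partner genes in 8 lists, with filled points for genes called at an adjusted p under 0.05. The fibril partners reach furthest left apart from Timp1 at -2.20, and the basement membrane partners and receptors hold most of the filled points right of 0.

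Some markers of the cell types of the ovary also differed between the groups, and their part in the collagen differences was not tested. Of all features tested 7.20% were called lower and 11.1% higher. A list with only 1 or 2 genes called is therefore not read as a shift of that cell type. Luteal markers fell in 9 of 10 genes, their summed level being 2833 to 4700 TPM at normal pressure and 568 to 1117 under hypoxia. Most of that sum was Cyp11a1, at 2138 to 2988 against 466 to 861 TPM. Adipocyte markers fell in 8 of 9 tested, at 321 to 402 against 142 to 269.7 TPM. Of 12 smooth muscle and pericyte markers, 3 fell, Tagln, Cnn1 and Des. The summed level of all 12 was 707 to 767 against 536 to 625 TPM. The largest part of that sum was Acta2, which was not called, at 324.5 to 345 against 275 to 312 TPM. Of the 12 fibroblast and stromal markers, 4 fell (Dcn, Lum, Dpt, Pi16) and 3 rose (Pdgfrb, Fbln1, Nr2f2), and the summed level was 596 to 687 against 569 to 608 TPM. The theca and interstitial list had 4 of 8 higher, at 298 to 382 against 429.9 to 466 TPM. For granulosa cells, which lie within the type IV sheet of follicles, 3 of 11 rose and 2 fell, at 1818 to 1969 against 2086 to 2346 TPM. Most of that sum was Inha, which was not called, at 1110 to 1201 against 1221 to 1379 TPM. Oocyte markers rose in 8 of 8 tested, at 87.6 to 117 against 143 to 174 TPM. The endothelial list had 2 of 12 higher, at 176 to 219.7 against 223 to 231 TPM. Surface epithelium had 3 of 10 lower and 1 higher, oviduct 1 of 8 lower, macrophages 1 of 8 higher, and Schwann cells 2 of 3 lower and 1 higher. None of the markers was listed at 0 in all 6 libraries. Because Col11a1 and Col9a2 are also known from cartilage, cartilage and bone markers were read: of the 7 in the table, Acan, Matn1, Matn3, Sp7 and Ibsp had group means under 1 TPM in both groups. Sox9, the cartilage transcription factor gene, was at 3.91 ± 0.531 against 3.06 ± 0.405 TPM and was not called, and Runx2, which is also known from luteinizing cells, fell from 44.4 ± 13.5 to 8.03 ± 5.24 TPM.

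Closest to the TPM filter from within were Col22a1 and Col25a1, each with a third-highest library of 1.00 TPM. Nearest outside lay Col13a1, a transmembrane collagen gene at 1.13, 0.81 and 1.24 against 0.96, 0.76 and 0.96 TPM, whose third-highest library was at 0.96. It was followed by Col11a2 at 0.74, Col7a1 at 0.69 and Col24a1 at 0.67 TPM by the same measure. Col24a1 is a fibrillar gene and was at 0.99, 0.61 and 0.67 against 0.65, 0.67 and 0.49 TPM.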

How the data were processed

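Whole-ovary RNA of 6 libraries was made with a column kit and a SMARTer mRNA kit, per the labels' protocols. The submitters' processing notes name HISAT2, Bowtie2, DESeq2 and the build GRCm38.p6, without versions or roles. No source used here gives the counter, the annotation or the strandedness. TPM values were deposited by the authors and keep no depth, so no counting interval is given. Groups were taken from the sample titles.

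Features that reached 1 TPM in 3 or more libraries were tested with limma 3.58.1 (R 4.3.3, mean-variance trend) on log2(TPM + 1), hypoxia minus normal pressure, two-sided, with Benjamini-Hochberg adjustment over 17120 features and calls at 0.05. This scale understates changes of low genes. The procedure was tested on simulated data. Errors of TPM are SD, those of fold changes limma's SE. Sequences are RefSeq's on GRCm38.p6. They are shown for called genes with an absolute log2 fold change of at least 0.5, a promoter entry that reaches at least 100 bases before the gene, and no annotated exon there. Alternatives were other pseudocounts, filters, scalings and variance models, the replicate number as a block, and leaving out each library. Named genes were the called ones, the chains of the main trimers, the most abundant of each class, those next to the filter, and up to 3 called partner genes per list and direction; the other genes named were added after their values were seen. The collagen genes and all lists were chosen with earlier results of these data known.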

Additional observations from a re-analysis of the deposited data

How the results depend on the processing

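Col1a1, Col3a1, Col11a1, Col9a2 and Col6a4 kept their call in all 15 alternatives, and Col5a3 and Col6a5 in the 14 where they were tested. With no filter, 5 collagen genes were called lower (FACIT 0, with 1 at an unadjusted p under 0.05, and other kinds 2), and partner genes were 7 lower and 6 higher. The shares of all features called fell too under that setting, to 1.65% lower and 2.08% higher. A minimum of 5 TPM left 24 of the 33 collagen genes tested and gave 6 lower, FACIT 1 higher and other kinds 3 lower. The called genes Col5a3, Col6a5, Col6a6, Col25a1 and Col22a1 were not tested there, and no other collagen call changed. Of all features 8.25% were then called lower and 14.3% higher. After median-ratio, quantile and protein-coding scaling, 16 collagen genes were lower each time, with 6 fibrillar and 2 FACIT genes among them. Those called higher were 7, 9 and 9, of which 3, 4 and 3 were basement membrane genes, and 2 were fibrillar under quantile and protein-coding scaling. Partner genes were then 28, 22 and 23 lower, with 22 higher under quantile and 20 under protein-coding scaling. All features were 18.3%, 16.0% and 14.9% lower and 16.1%, 20.3% and 21.6% higher. Robust variance gave 2 fibrillar and 1 basement membrane genes higher, with 14.3% of all features higher. Without a trend FACIT genes called lower were 0, with 1 at an unadjusted p under 0.05. The cause of the shifts under the other settings was not tested.

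Leaving out 1 library at a time gave 4 to 13 collagen genes lower and 3 to 5 higher, fibrillar 3 to 6 lower and 1 to 2 higher, FACIT 0 to 1 lower and 1 to 2 higher, other kinds 1 to 6 lower, and partner genes 9 to 18 lower and 6 to 12 higher. Over the same fits 4.72% to 12.6% of all features were called lower and 6.92% to 12.1% higher. The median log2 fold change ranged from -0.186 to 0.047 for all collagen genes, positive without normal-pressure replicate 1 or 3, and from 0.0555 to 0.247 for FACIT genes.

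Whether replicate numbers pair the samples is not stated, though same-numbered libraries are described with the same days of exposure. Deviations of same-numbered libraries correlated at -0.03, 0.11 and -0.05, and those of differently numbered libraries at -0.08 to 0.11. With 3 libraries per group these values cannot decide whether the samples were paired. With the number as a replicate block 10 collagen genes were lower and 6 higher, the added ones being Col4a4 and Col27a1, so fibrillar genes called higher were 2 and basement membrane genes 1. Of all features 9.32% were then called lower and 14.7% higher.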

Other observations

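The collagen genes below the TPM filter whose levels are not given above were at low levels in all 6 libraries. Col28a1, a collagen gene of peripheral nerve, was at 0.36, 0.34 and 0.27 TPM at normal pressure and 0.54, 0.59 and 0.57 under hypoxia, and Col10a1, a gene of hypertrophic cartilage, at 0.05, 0.02 and 0.09 against 0.11, 0.14 and 0.36. In both genes the groups did not overlap, and neither was tested. Col7a1, the gene of anchoring fibrils, was at 0.90, 0.63 and 0.89 against 0.69, 0.52 and 0.59 TPM with overlapping groups. Col17a1 ranged from 0.10 to 0.22 and Col19a1 from 0.03 to 0.06 TPM.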
